A study of Mus musculus with 2 samples.

Results

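A set of 8 genes that make up or receive the interleukin 17 (IL-17) programme of T cells was examined in regulatory T (Treg) cells of injured mouse muscle: Il17a, Il23r, Ahr, Il6ra, Il6st, Il17ra, Il17rb and Il17re. They are 8 of the 23337 gene symbols in the counted table, each matched by its exact symbol, and all 8 were found. The IL-33 cells came from muscle given cardiotoxin, a snake venom toxin that destroys muscle fibres, together with 0.3 ug of recombinant IL-33, a cytokine released by damaged tissue. The other cells came from muscle given cardiotoxin with PBS, the salt buffer used as vehicle, so both groups were injured. All mice were 8-week-old males of the Foxp3-IRES-GFP/C57BL/6 background, in which a green fluorescent protein is made from the Foxp3 locus, and muscle was taken 4 days after injury. Each group was 1 sequencing library, called a sample here, from 5000 sorted Treg cells, and the labels do not say how many mice gave the cells. No difference given here therefore has a replicate check, no test was run, and "higher" and "lower" compare 2 samples and not 2 treatments. The genes were chosen with their levels in both samples known: they were chosen by their CPM in the IL-33 and PBS samples, so those levels are a description.

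IL-17A is an inflammatory cytokine that acts on epithelial and stromal cells and drives the recruitment of neutrophils. In CD4 T cells its gene is switched on by IL-6, which signals through the IL-6 receptor alpha chain and gp130 to STAT3, and it is sustained by IL-23. Treg cells of mucosal tissues can share parts of this programme while keeping Foxp3. The receptors of the IL-17 family are built around a common chain, IL-17RA, which pairs with IL-17RC for IL-17A, with IL-17RB for IL-25 and with IL-17RE for IL-17C.

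The 3 members that were counted in the IL-33 sample and had 0 counts in the PBS sample were Il17a, Il23r and Il17rb. Their promoters are shown because their presence in 1 sample alone is the main difference within the set. Each stretch is the RefSeq GRCm38.p6 sequence from 250 bases before to 50 bases after the start of the gene, 5′ to 3′ on the strand of the gene. Capitals mark AGGTCA (or TGACCT on the other strand), a half-site read by nuclear receptors, TATAAA (or TTTATA), the TATA box, and GCGTG (or CACGC), the core of the sites bound by the aryl hydrocarbon receptor with its partner ARNT.
Il17a, chr1:20730655-20730954, plus strand: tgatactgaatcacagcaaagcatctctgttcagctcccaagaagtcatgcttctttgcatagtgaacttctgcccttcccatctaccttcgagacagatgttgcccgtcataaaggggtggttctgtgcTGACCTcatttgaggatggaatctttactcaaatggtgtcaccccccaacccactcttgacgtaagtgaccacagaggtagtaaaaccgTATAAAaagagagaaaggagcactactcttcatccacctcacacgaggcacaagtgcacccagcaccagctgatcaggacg
Il23r, chr6:67491806-67492105, minus strand: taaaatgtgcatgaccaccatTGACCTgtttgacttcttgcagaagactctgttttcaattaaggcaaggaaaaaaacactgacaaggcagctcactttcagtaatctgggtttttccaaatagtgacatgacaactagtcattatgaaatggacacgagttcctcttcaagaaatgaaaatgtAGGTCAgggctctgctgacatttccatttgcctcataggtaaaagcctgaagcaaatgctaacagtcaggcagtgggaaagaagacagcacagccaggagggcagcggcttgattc
Il17rb, chr14:30008847-30009146, minus strand: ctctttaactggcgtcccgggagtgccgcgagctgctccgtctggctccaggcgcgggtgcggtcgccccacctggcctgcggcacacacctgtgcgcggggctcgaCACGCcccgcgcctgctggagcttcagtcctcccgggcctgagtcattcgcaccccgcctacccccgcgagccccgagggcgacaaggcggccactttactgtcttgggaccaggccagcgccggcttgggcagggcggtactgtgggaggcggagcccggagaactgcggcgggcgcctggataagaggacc
The Il17a window held 1 AGGTCA match, on the other strand at position -120, and a TATAAA match at position -31, counting from the first base of the gene. The Il23r window held 2 AGGTCA matches, at positions -229 (other strand) and -66, and the Il17rb window held 1 GCGTG match, on the other strand at position -143. None of the marked motifs overlapped another in these 3 windows. Of 32851 promoters of the same length, 16.3% held AGGTCA on either strand, 13.6% held TATAAA and 32.4% held GCGTG. These matches describe the letters of the windows and are not evidence of binding.

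The IL-33 sample held 4080791 counts over 11068 genes and the PBS sample 1573707 counts over 9763 genes. Levels are given in CPM, the count of a gene divided by the total of its sample and scaled to counts per 1000000. One count equalled 0.245 CPM in the IL-33 sample and 0.635 CPM in the PBS sample. Where a gene had 0 counts, its level could by counting error alone still have reached the equivalent of 3 counts. That is 0.735 CPM in the IL-33 sample and 1.91 CPM in the PBS sample. Of 9 fixed markers of Treg cells, 9 were counted in both samples, with a summed level of 11617 CPM in the IL-33 sample and 12071 CPM in the PBS sample. Ctla4 alone made up 6186 CPM of this sum in the IL-33 sample and 6246 CPM in the PBS sample. Foxp3 itself was thin, at 40 counts in the IL-33 sample and 1 count in the PBS sample, a ratio of 15.4 (2.61 to 624). Tigit had 47 counts in the IL-33 sample and 3 in the PBS sample, and the other 7 markers lay within 2-fold. A gene that marks the sorted cells was thus itself close to 0 in the PBS sample, a limit on reading other genes at 0 there. Bulk samples do not tell fewer cells that carry a transcript from less of it per cell.

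Il17a, Il23r and Il17rb were higher in the IL-33 sample, Il6ra and Il17ra stood at 0.622 and 0.661 times the PBS level, Il6st at 1.28 times, Ahr did not differ beyond counting error, and Il17re had no counts. Among the 8 members, 7 had at least 5 CPM in either sample, 3 of these exceeded the PBS level by 2-fold or more on the log2(CPM + 1) scale, 0 were at least 2-fold lower and 4 were within 2-fold. Over all 9005 genes with at least 5 CPM in either sample, 15.5% were at least 2-fold higher and 16.3% at least 2-fold lower, 31.8% in all. The 3 higher members reached the floor of 5 CPM in the IL-33 sample alone and had 0 counts in the PBS sample. Any gene with that pattern is counted as higher, so nothing is read from their share, here or in the gene lists below. The median log2 fold was 0.36 over the 7 members, which include these 3, and -0.08 over all genes at this floor. Nothing is read from that difference either. The summed level of the 8 genes was 245 CPM in the IL-33 sample and 216 CPM in the PBS sample.

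**Figure D1:**
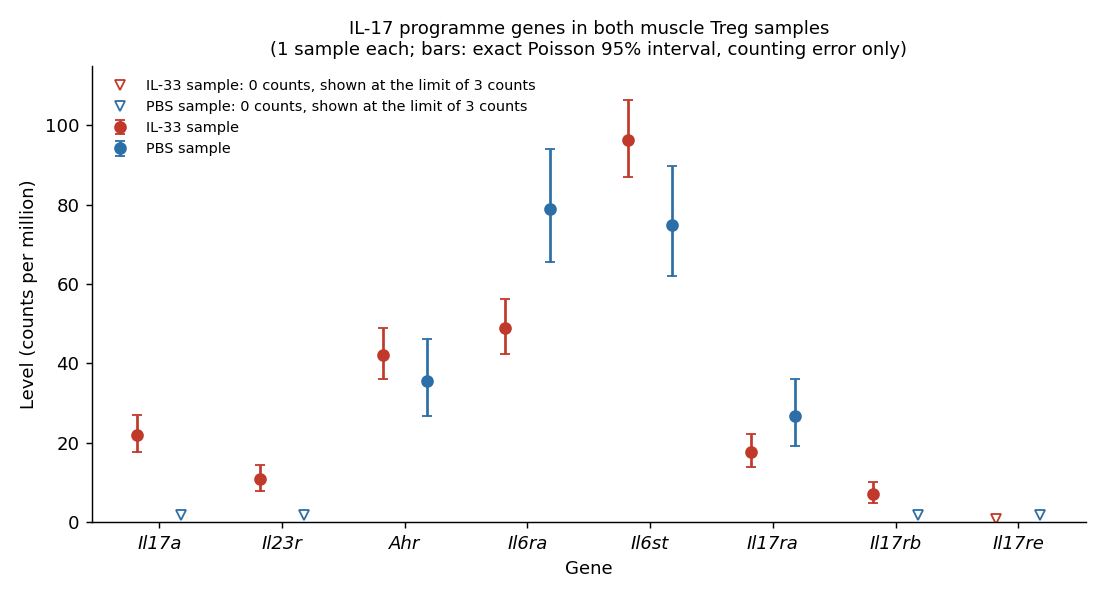
Levels of the 8 genes in CPM (vertical axis) in the IL-33 sample (red, left of each pair) and the PBS sample (blue, right), with exact Poisson 95% intervals that cover counting error only; open triangles mark 0 counts, drawn at the limit of 3 counts. Il17a stood at 22.1 CPM, Il23r at 10.8 CPM and Il17rb at 7.11 CPM in the IL-33 sample, each against 0 counts in the PBS sample, while Il6st and Il6ra were the members with the most CPM in both.

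Il17a, the gene of the cytokine itself (ENSMUSG00000025929.4, chromosome 1, 20730905 to 20734496, plus strand, GRCm38), had 90 counts in the IL-33 sample and 0 in the PBS sample. Its level was 22.1 CPM (Poisson 95% interval 17.7 to 27.1) in the IL-33 sample and at most 1.91 CPM by the limit of 3 counts in the PBS sample. By that limit Il17a was at least 11.6-fold higher, and the lower end of the exact interval of the ratio, which also counts the error of the 90 reads, was 9.22. At the IL-33 level, the shallower PBS sample would have held 34.7 counts. Among all 1531 genes with 50 to 99 counts in the IL-33 sample, 5.94% had 0 counts in the PBS sample, so Il17a shared this pattern with 90 other genes of that range. Of 1766 genes counted in the IL-33 sample and at 0 in the PBS sample, 25 had at least 90 counts, Il17a among them. The genes nearest in count with the same 0 in the PBS sample were Atp6v0d2 and Dnajc24, with 90 counts each, and Hspa2, with 89. That likeness is in counts over 2 samples and says nothing of function.

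Il17a stood alone among the cytokines of its family. Il17f, which lies 42649 bases from it on chromosome 1 and is usually made by the same helper cells, had 0 counts in both samples. So did Il17b, Il17c, Il17d and Il25, the gene of the cytokine bound by IL-17RB. Mcm3, a DNA replication gene on the far side of Il17f, was counted in both samples, at 84.3 CPM in the IL-33 sample and 107 CPM in the PBS sample. Further effector genes of IL-17-producing T cells were at or near 0 as well: Il22 and Csf2 had 0 counts in both samples, and Il21 had 1 count in the IL-33 sample and 0 in the PBS sample.

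Il23r, the specific chain of the IL-23 receptor (ENSMUSG00000049093.9, chromosome 6, 67422932 to 67491855, minus strand), had 44 counts in the IL-33 sample and 0 in the PBS sample. Its level was 10.8 CPM (7.83 to 14.5) in the IL-33 sample, at least 5.66-fold higher by the limit of 3 counts, with 4.41 as the lower end of the exact interval. The PBS sample would have held 16.97 counts at that level. This pattern was more common at this depth: of the 1324 genes with 25 to 49 counts in the IL-33 sample, 18.1% had 0 counts in the PBS sample. Aktip and Decr1, with 44 counts, and Asb1, with 45, were its nearest genes by count. Il12rb1, the chain that pairs with IL-23R to form the receptor, went the other way, at 21.6 CPM in the IL-33 sample and 48.3 CPM in the PBS sample, a ratio of 0.447 (0.325 to 0.615).

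**Figure D2:**
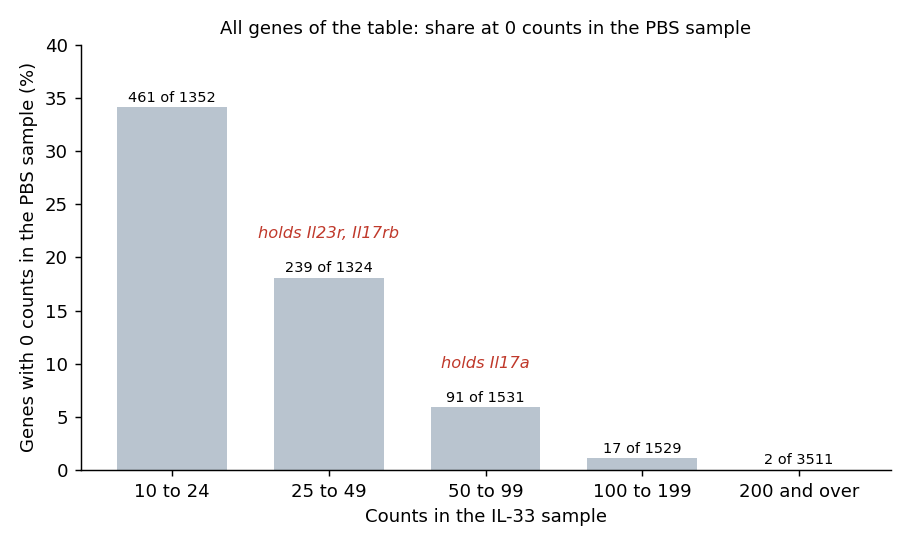
Share of all genes of the table with 0 counts in the PBS sample (vertical axis, percent) by their count in the IL-33 sample (horizontal axis), with the number of such genes over each bar. The share was 34.1% at 10 to 24 counts, 18.1% in the range that holds Il23r and Il17rb, 5.94% in the range that holds Il17a, 1.11% from 100 counts to below 200, and 0.057% at 200 counts and over.

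Ahr, the gene of the aryl hydrocarbon receptor, a ligand-activated transcription factor that senses dietary and microbial compounds and promotes IL-22 production in helper T cells (ENSMUSG00000019256.17, chromosome 12, 35497974 to 35535038, minus strand), did not differ between the samples beyond counting error. It had 172 counts in the IL-33 sample and 56 in the PBS sample, or 42.1 CPM (36.1 to 48.9) in the IL-33 sample and 35.6 CPM (26.9 to 46.2) in the PBS sample. The ratio of 1.18 had an interval of 0.871 to 1.63, which holds 1 and leaves room for a level up to 1.63 times the PBS one. Of the 2023 genes over the floor with a mean of 20 to 50 CPM, where Ahr and Il17ra lie, 30.9% differed by 2-fold or more. Arnt, which encodes the DNA-binding partner of the receptor, was higher, at 38.5 CPM in the IL-33 sample, against 13.98 CPM in the PBS sample, a ratio of 2.75 (1.76 to 4.52). Tiparp, a target gene that feeds back on the receptor, had a ratio of 1.94 (1.64 to 2.31), with 199.5 CPM in the IL-33 sample and 103 CPM in the PBS sample. It lay just inside 2-fold and moved past it when the samples were scaled by trimmed mean of M-values (TMM, log2 fold 1.07). The other listed targets Cyp1a1, Cyp1a2, Cyp1b1, Ahrr, Nqo1 and Ido1 had 0 counts in both samples. In the list of Ahr partners and targets, 2 of 8 genes over the floor were higher, 0 lower and 6 within 2-fold, with a median log2 fold of 0.01. The shares over all genes at this floor were 15.5% higher and 16.3% lower.

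Il6ra, which encodes the alpha chain that binds IL-6 (ENSMUSG00000027947.11, chromosome 3, 89864059 to 89913196, minus strand), was lower in the IL-33 sample. It had 200 counts in the IL-33 sample and 124 in the PBS sample, or 49.01 CPM (42.5 to 56.3) in the IL-33 sample and 78.8 CPM (65.5 to 93.9) in the PBS sample. The ratio was 0.622 (0.495 to 0.785), short of 2-fold. Il6st, which encodes gp130, the signalling chain shared by IL-6, IL-11, LIF, oncostatin M and IL-27 (ENSMUSG00000021756.12, chromosome 13, 112464070 to 112510086, plus strand), went the other way. It had 393 counts in the IL-33 sample and 118 in the PBS sample, or 96.3 CPM (87.0 to 106) in the IL-33 sample and 75.0 CPM (62.1 to 89.8) in the PBS sample. The ratio was 1.28 (1.04 to 1.59). The counting intervals of the 2 samples did not overlap for Il6ra and overlapped narrowly for Il6st. Among all 1522 genes over the floor with a mean of 50 to 100 CPM, the range of both genes, 13.1% differed by 2-fold or more.

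**Figure D3:**
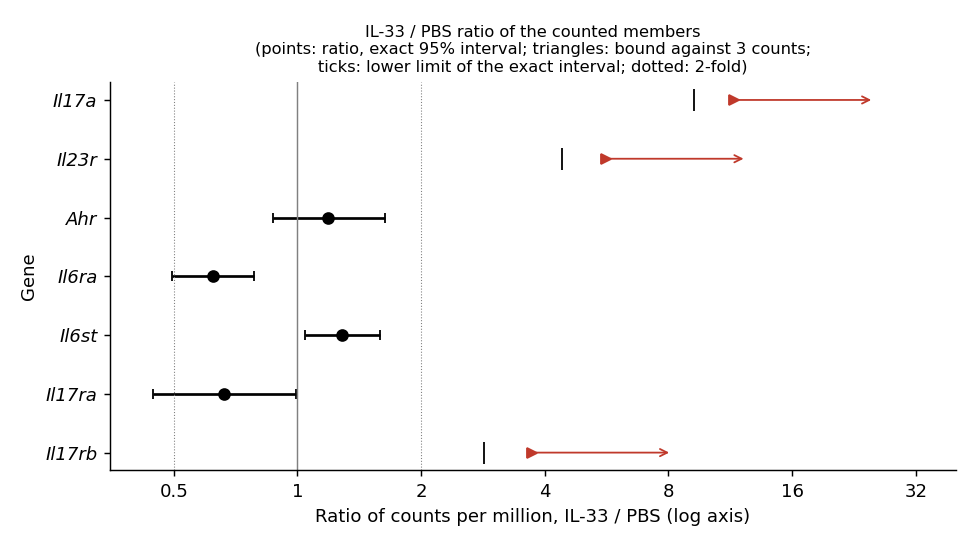
Ratio of CPM, IL-33 over PBS (log axis), for the 7 counted genes. Points are ratios with exact 95% intervals, triangles with arrows are lower bounds against 3 counts, and ticks left of them are the lower ends of the exact intervals; Il17a, Il23r and Il17rb lie above 2-fold, Il6ra and Il17ra below 1, and the interval of Ahr holds 1.

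Among the ligands and other receptors that use gp130, Lif had 0 counts in the IL-33 sample and 23 in the PBS sample. By the limit of 3 counts it was at least 19.9-fold lower, and the upper end of the exact interval of the ratio was 0.0671. Its count lies in the range of 10 to 24 PBS counts, where 7.23% of 1716 genes had 0 counts in the IL-33 sample. Osm, the oncostatin M gene, had 16 counts in the IL-33 sample and 21 in the PBS sample, a ratio of 0.294 (0.143 to 0.591). Ebi3, a subunit of IL-27 and IL-35, was higher at 3.09 (1.76 to 5.82), with 27.4 CPM in the IL-33 sample and 8.90 CPM in the PBS sample. The IL-27 receptor gene Il27ra was at 141 CPM in the IL-33 sample and 214 CPM in the PBS sample, a ratio of 0.660 (0.576 to 0.757). Il6, Il27, Clcf1, Ctf1, Cntf, Osmr and Cntfr had 0 counts in both samples. Of the 6 genes of this list over the floor, 1 was higher, 2 were lower and 3 were within 2-fold, and the median log2 fold was -0.63. All genes at this floor were higher in 15.5% of cases and lower in 16.3%.

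The kinases and STAT factor downstream of both cytokine receptors lay within 2-fold. Stat3, the factor that carries IL-6 and IL-23 signals to the Il17a gene, was at 655 CPM in the IL-33 sample and 734 CPM in the PBS sample, a ratio of 0.893 (0.833 to 0.957). Jak2, the kinase bound to IL-23R, had a ratio of 1.07 (0.950 to 1.21), and Tyk2, the kinase bound to IL-12RB1, had a ratio of 0.655 (0.547 to 0.787). Socs3, which blocks gp130 signalling, was at 10.3 CPM in the IL-33 sample and 14.6 CPM in the PBS sample, a ratio of 0.704 whose interval of 0.414 to 1.23 holds 1. Of 15 genes of IL-6 and IL-23 signalling over the floor, 1 was higher (Il23r), 1 was lower (Il12rb1) and 13 were within 2-fold, with a median log2 fold of -0.16. Beside them, 15.5% of all genes at this floor were higher and 16.3% lower, and nothing is read from the list count.

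Il17ra, the common chain of the IL-17 receptors (ENSMUSG00000002897.5, chromosome 6, 120463247 to 120487559, plus strand), had 72 counts in the IL-33 sample and 42 in the PBS sample. Its level was 17.6 CPM (13.8 to 22.2) in the IL-33 sample and 26.7 CPM (19.2 to 36.1) in the PBS sample, and the intervals overlap. The ratio of 0.661 had an interval of 0.446 to 0.992 that left out 1 by little, and with TMM scaling the interval ran to 1.08 and held it. Il17rb, the chain that binds IL-25 (ENSMUSG00000015966.17, chromosome 14, 29996135 to 30008896, minus strand), had 29 counts in the IL-33 sample and 0 in the PBS sample. Its level was 7.11 CPM (4.76 to 10.2) in the IL-33 sample, at least 3.73-fold higher by the limit of 3 counts, with 2.84 as the lower end of the exact interval. At equal level the PBS sample would have held 11.2 counts, and Il17rb lies in the same 25 to 49 count range as Il23r, where 18.1% of genes had 0 counts in the PBS sample. Differences of 2-fold were common at such levels: 68.5% of 1928 genes with a mean of 2.5 to 10 CPM, the range of Il17rb and Il23r, and 41.3% of 1488 genes with a mean of 10 to 20 CPM, the range of Il17a, differed that much. The nearest genes by count to Il17rb were Aldh4a1, Atp8b4 and Bdh1, all at 29 counts.

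Il17rb overlaps Actr8, a chromatin remodelling gene on the opposite strand, over 10220 bases, and whether strand was used in counting is not given in the sources used here. Actr8 had 86 counts in the IL-33 sample and 73 in the PBS sample, or 21.1 CPM in the IL-33 sample and 46.4 CPM in the PBS sample, so it was not at 0 where Il17rb was. Reads of the shared stretch cannot be told apart in this table. Il17re, which encodes the chain that recognises IL-17C (ENSMUSG00000043088.16, chromosome 6, 113458484 to 113470758, plus strand), had 0 counts in both samples, so its level was at most 0.735 CPM in the IL-33 sample and 1.91 CPM in the PBS sample. Il17rc, the chain that IL-17RA needs for IL-17A, lies 668 bases from Il17re and also had 0 counts in both. Il17rd had 11 counts in the IL-33 sample and 0 in the PBS sample and did not reach the floor.

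**Figure D4:**
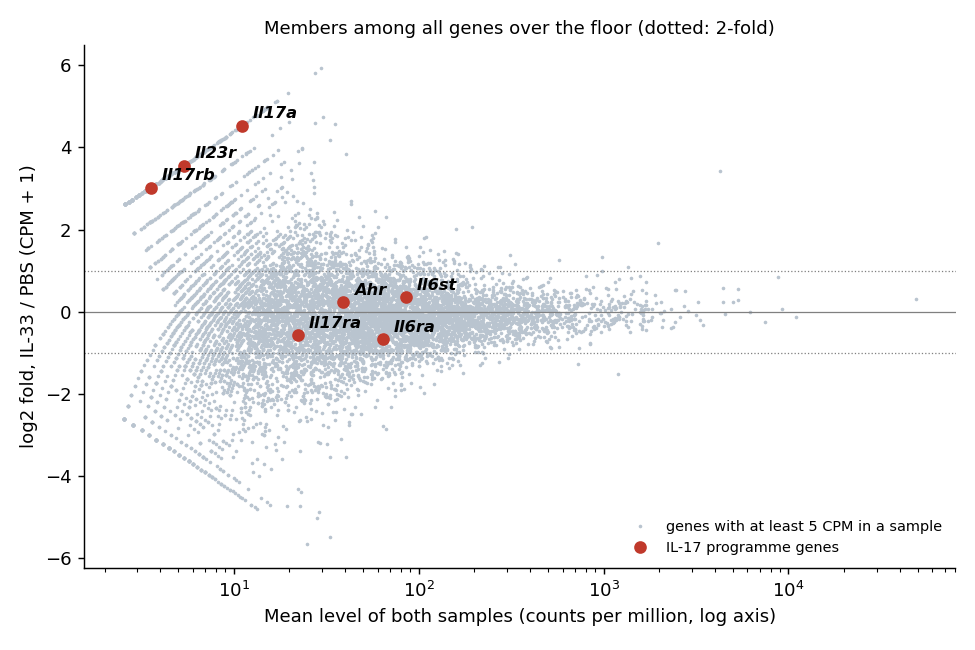
The log2 ratio (CPM + 1) of the IL-33 sample to the PBS sample (vertical axis) against the mean CPM of both samples (log horizontal axis) for the 9005 genes with at least 5 CPM in either sample (grey) and the 7 members among them (red). Il17a, Il23r and Il17rb lie on the upper edge formed by genes with 0 counts in the PBS sample, and the other 4 members lie within 2-fold among genes of similar level.

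Scaled by length, with the longest annotated transcript of each gene, Il17a had the highest level of the set in the IL-33 sample, at 18.8 CPM per kilobase (15.1 to 23.2). Il6st followed at 11.1 CPM per kilobase (10.03 to 12.3), then Ahr at 7.60 (6.50 to 8.82), Il6ra at 5.67 (4.91 to 6.52), Il23r at 4.33 (3.15 to 5.82), Il17rb at 2.76 (1.85 to 3.96) and Il17ra at 2.28 (1.78 to 2.87). The intervals of Il17a and Il6st did not overlap each other or that of Ahr, whereas those of Ahr and Il6ra, Il6ra and Il23r, Il23r and Il17rb, and Il17rb and Il17ra did. In the PBS sample Il6ra was at 9.12 CPM per kilobase (7.59 to 10.9), Il6st at 8.64 (7.15 to 10.3), Ahr at 6.41 (4.85 to 8.33) and Il17ra at 3.44 (2.48 to 4.65). There Il6ra, Il6st and Ahr overlapped each other and Il17ra lay below all of them. The level of Il6st per kilobase was 1.96 times that of Il6ra in the IL-33 sample and 0.947 times in the PBS sample. These ratios depend on the length used. With exon union length, the merged length of all annotated exons, they were 1.53 in the IL-33 sample and 0.741 in the PBS sample. Il17a stood above 73.0% of the 9994 counted genes with an annotated length in the IL-33 sample by this measure, Il6st above 62.3% and Il17ra above 31.1%. Reads per kilobase assume even coverage along the transcript, which the table does not show.

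The transcription factors of the IL-17 programme lay mostly within 2-fold. So did 6140 of all 9005 genes over the floor, with 15.5% higher and 16.3% lower. Such differences were rarer at higher levels, reached by 13.1% of genes averaging between 50 and 100 CPM. Nothing is read from the counts of these factors. Rora had a ratio of 0.812 (0.658 to 1.01), Batf one of 0.708 (0.540 to 0.933), Irf4 one of 0.713 (0.634 to 0.803) and Maf one of 0.724 (0.679 to 0.773). Hif1a, at 1.04 (0.979 to 1.10), was close to equal. Of 15 such factors, 0 were higher, 1 was lower and 14 were within 2-fold, with a median log2 fold of -0.30. The lower one was Bhlhe40, a factor that promotes inflammatory cytokine production in helper T cells, at 191 CPM in the IL-33 sample and 416 CPM in the PBS sample, a ratio of 0.459 (0.413 to 0.510) that lay at the 2-fold limit with TMM scaling.

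Among effector and surface genes of IL-17-producing helper cells, 2 of 12 over the floor were higher, 3 were lower and 7 were within 2-fold. The median log2 fold was -0.33. Over all genes over the floor, 15.5% were higher and 16.3% lower. The 2 higher ones, Il17a and Il23r, are members of the set and reached the floor in the IL-33 sample alone. The lower ones were Il1r1, the IL-1 receptor that supports this lineage, at 0.350 (0.249 to 0.492), Ccl20, the ligand of CCR6, with 0 counts in the IL-33 sample and 20 in the PBS sample, and Tgfb3, with 0 in the IL-33 sample and 13 in the PBS sample. Ccr6, the chemokine receptor typical of these cells, was at 137 CPM in the IL-33 sample and 188 CPM in the PBS sample, a ratio of 0.731 (0.634 to 0.844), and Il10 was at 195 CPM in the IL-33 sample and 198 CPM in the PBS sample. Zeros were rarer in the deeper IL-33 sample: 7.23% of the 1716 genes with 10 to 24 counts in the PBS sample had 0 counts there.

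The IL-17 receptor signalling list had 2 higher, 4 lower and 17 genes within 2-fold among 23 over the floor, with a median log2 fold of -0.12. Over all genes over the floor, 15.5% were higher and 16.3% lower, and nothing is read from the counts of this list. Both higher genes reached the floor in the IL-33 sample alone and had 1 count each in the PBS sample. Traf3ip2, which encodes the adaptor ACT1 that binds the IL-17 receptor chains, had 80 counts in the IL-33 sample and 1 in the PBS sample, a ratio of 30.9 (5.38 to 1234). Traf4, a competitor of TRAF6 for ACT1, had 27 counts in the IL-33 sample and 1 count in the PBS sample, a ratio of 10.4 (1.72 to 426). Traf6, the ubiquitin ligase recruited by ACT1, was at 24.01 CPM in the IL-33 sample and 59.1 CPM in the PBS sample, a ratio of 0.406 (0.303 to 0.546). The kinase genes Ikbkb, at 0.427 (0.347 to 0.526), and Chuk, at 0.488 (0.395 to 0.603), were lower as well, as was Zc3h12a, an RNase that limits IL-17 responses, at 0.467 (0.297 to 0.737). Chuk and Zc3h12a came to within 2-fold under each of the 3 other scalings tried.

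**Figure D5:**
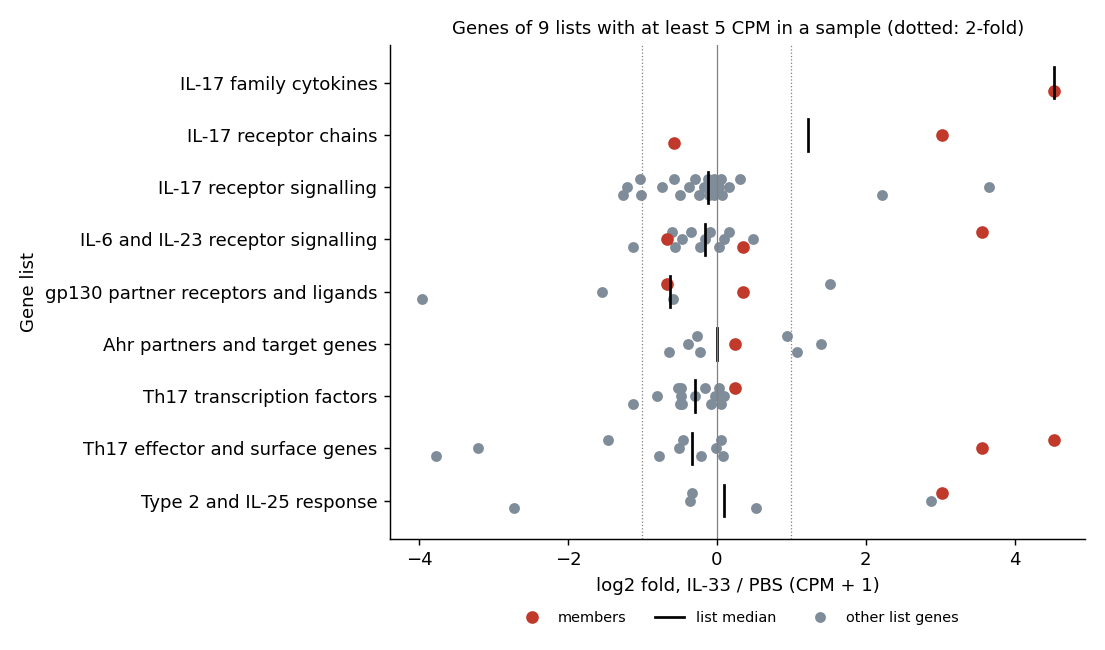
The log2 ratio (CPM + 1) of the IL-33 sample to the PBS sample (horizontal axis) for the genes of 9 lists with at least 5 CPM in either sample; red points are members of the set, grey points other genes, black bars list medians and dotted lines 2-fold. Medians of the 5 lists with the most genes lie between -0.33 and 0.01, and Traf3ip2 is the single gene outside the set that lies to the right of Il17rb.

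Genes of the type 2 response, in which Il17rb takes part as the IL-25 receptor chain, showed no common direction. Il9r, the IL-9 receptor gene, had 26 counts in the IL-33 sample and 0 in the PBS sample. It was at least 3.34-fold higher by the limit of 3 counts, with 2.53 as the lower end of the exact interval. Its count lies in the range where 18.1% of all genes had 0 counts in the PBS sample. Il5 had 10 counts in the IL-33 sample and 0 in the PBS sample, under the floor and in the range where that share was 34.1%. Il13ra1 went the other way, with 4 counts in the IL-33 sample and 19 in the PBS sample, a ratio of 0.0812 (0.0201 to 0.244). Il4, Il13 and Il9 had 0 counts in both samples. Of the 6 genes of this list over the floor, 2 were higher, 1 was lower and 3 were within 2-fold, with a median log2 fold of 0.10. The shares over all genes at this floor were 15.5% higher and 16.3% lower. Il4ra, the receptor chain for IL-4 and IL-13, had a ratio of 0.779 (0.637 to 0.956), and Gata3, the main transcription factor of type 2 helper cells, one of 0.795 (0.713 to 0.887). Il1rl1, the IL-33 receptor gene, was also within 2-fold but went the other way, at a ratio of 1.44 (1.34 to 1.55). It had 3439 counts in the IL-33 sample and 919 in the PBS sample.

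Il17a, Il23r and Il17rb are also expressed by gamma delta T cells and innate lymphoid cells, and markers of these and other cells were read beside them. Of 11 fixed gamma delta T cell markers, 5 were matched, and the others, which are T cell receptor genes, were not analysed here. Blk had 26 counts in the IL-33 sample and 1 in the PBS sample, Cd163l1 had 4 in IL-33 and 6 in PBS cells, 5830411N06Rik had 5 in IL-33 and 0 in PBS cells, and Sox13 had 3 in IL-33 and 0 in PBS cells. Maf, the fifth, is also expressed by Treg cells and made up most of the summed level of 661 CPM in the IL-33 sample and 904 CPM in the PBS sample. Of 12 innate lymphoid markers, 7 had 0 counts in both samples, among them Kit, Ncr1, Calca, Arg1 and Il13, and the rest, among them Il7r, Il1rl1, Lta and Il5, are shared with T cells. Their summed level was 1976 CPM in the IL-33 sample and 1877 CPM in the PBS sample. Markers of CD8 T and NK cells summed to 26.7 CPM in the IL-33 sample and 24.1 CPM in the PBS sample, with Cd8a, Ncr1, Klrb1c and Klra8 at 0 in both. Most of each sum was Cd8b1, at 21.6 CPM in the IL-33 sample and 13.3 CPM in the PBS sample, a ratio of 1.62 (0.995 to 2.74). Klrk1 went the other way, with 10 counts in the IL-33 sample and 17 in the PBS sample, a ratio of 0.227 (0.0928 to 0.525). Myeloid markers summed to 70.6 CPM in IL-33 and 89.6 CPM in PBS cells, and dendritic cell markers to 27.7 CPM in IL-33 and 94.7 CPM in PBS cells. B cell markers summed to 32.3 CPM in IL-33 and 26.7 CPM in PBS cells, and mast cell and basophil markers to 0 in both. Muscle, fibroblast and endothelial markers summed to 49.5 CPM in IL-33 and 120 CPM in PBS cells. Most of the IL-33 sum was Pecam1, at 48.5 CPM in IL-33 and 45.1 CPM in PBS cells, and the other 12 markers summed to 0.980 CPM in IL-33 and 75.0 CPM in PBS cells. Among these, the collagen gene Col3a1 had 0 counts in IL-33 and 78 in PBS cells, Dcn had 0 in IL-33 and 24 in PBS cells, and Cdh5 had 3 in IL-33 and 11 in PBS cells. These stromal markers were lower in the same direction as Lif, Ccl20, Tgfb3 and Il1r1. So were the dendritic cell markers H2-Aa, with 18 counts in IL-33 and 97 in PBS cells, H2-Ab1, with 7 and 19, and Itgax, with 0 and 19. Siglech of that list was higher and Xcr1 was within 2-fold. The part of the stromal and dendritic cell markers in those differences was not tested. Of the gamma delta T cell markers, Blk had more CPM in the IL-33 sample, as Il17a had, at a ratio of 10.03 (1.65 to 411). 5830411N06Rik and Sox13 also had more CPM there, but both were under the floor and did not differ beyond counting error. The lower ends of their exact intervals were 0.353 and 0.159. Cd163l1 and Maf went the other way, at ratios of 0.257 (0.0534 to 1.08) and 0.724 (0.679 to 0.773). The part of these markers in the Il17a difference was not tested.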

How the data were processed

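RNA was measured in 2 libraries of sorted muscle Treg cells, 1 per treatment. Per the labels' protocols, poly(A) RNA was converted to cDNA, amplified, fragmented with a transposon and sequenced as read pairs of 25 bp. The authors deposited raw counts, whole numbers per gene symbol. Per the submitters' processing notes, TopHat2 2.0.10, Cufflinks 2.2.1 and mm10 were used; the role of each, the counter, the gene models and any use of strand were not given in the sources used here. No molecular identifiers are named, so intervals and limits cover counting error only.

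CPM was the count over the library total, and log2 folds were computed after adding a pseudocount of 1 CPM, which makes folds of low genes smaller. Only genes that reached 5 CPM in either library entered the comparison, and 2-fold was the threshold. Ratios carry the exact conditional (Clopper-Pearson) 95% interval, levels the exact Poisson 95% interval, and a gene at 0 is a bound against 3 counts in that library. With 1 library per group no test was run. The members and lists were chosen with earlier results of these data known. Of 206 fixed symbols, 199 were matched, 3 of them by an older name. Genes named are all members, list genes with at least 10 counts past 2-fold, cytokine and receptor genes at 0 and, for each member at 0 in 1 library, the 3 protein-coding genes nearest in count; others were chosen after their values were seen. A few list genes are not reported here by name. Gene spans and transcript lengths came from GENCODE M21 (GRCm38, the assembly of mm10), and promoters from RefSeq, where 6 of 8 members matched. Alternatives were other scalings (edgeR 4.0.16 TMM factors, median of ratios, totals without the 20 most counted genes), pseudocounts, floors, a threshold and a length. Python 3.11.15, scipy 1.17.1 and R 4.3.3 were used, and the computation was tested on simulated data. Those data held Poisson noise only, and the genes checked had mean levels above those of Il17a, Il23r and Il17rb.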

Additional observations from a re-analysis of the deposited data

How the results depend on the processing

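Of the 8 members, 3 were higher under each scaling and pseudocount tried, with no floor and at 1.5-fold; a floor of 10 CPM left out Il17rb. None was lower at 2-fold under these settings, and 1 (Il6ra) was lower at a threshold of 1.5-fold. Of the 80 genes over the floor in all pathway lists, 12 were lower at 2-fold and 19 at 1.5-fold. Over all 9005 genes over the floor, 16.3% were lower at 2-fold, and the share at 1.5-fold is not given here. Nothing is read from these list counts. A pseudocount of 5 CPM reduced the log2 fold to 2.44 for Il17a, 1.66 for Il23r and 1.28 for Il17rb, because all 3 had 0 counts in the PBS sample. TMM scaling shifts the log2 ratio of CPM by 0.12 and the median of ratios by 0.11, less where the pseudocount weighs on genes at 0 (Il17a went to 4.58 with TMM, against 4.53), so the direction of smaller folds depends on the scaling; the direction of Ahr, Il6ra, Il6st and Il17ra was the same under each scaling. With exon union length Il6st came to 8.68 CPM per kilobase in the IL-33 sample and 6.76 in the PBS sample, and Il17rb (1.92) lay below Il17ra (2.04) in the IL-33 sample. Il17a in the IL-33 sample and Il6ra in the PBS sample had the highest level per kilobase with either length. No paired analysis was possible because each group has 1 library. The PBS sample was the shallower one, with 1573707 counts. By counting error alone, a gene at 0 counts there may have had a level of up to 1.91 CPM. Any other loss of transcripts is not in that limit, and Foxp3, a marker of the sorted cells, had 1 count there. Of the 1531 genes with 50 to 99 counts in the IL-33 sample, 5.94% had 0 counts in the PBS sample.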
